A study of Saccharomyces cerevisiae with 12 samples.

Results

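Rows of the deposited table whose name is a systematic yeast name with a letter suffix, such as YER053C-A, were taken as a group. In this naming the letters give the chromosome and its arm, the digits the order along the arm, W or C the strand, and the suffix marks a reading frame that was added after the numbers had been given out. The pattern found 312 of the 6053 rows, and no level was used to choose them. RNA had been measured by SAGE-tag sequencing in cells kept for 60 min with or without potassium. There were 4 groups of 3 libraries, which were bmh2∆ at 0 mM KCl, bmh2∆ at 50 mM KCl, bmh1∆ at 0 mM KCl and bmh1∆ at 50 mM KCl.

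Both strains derive from BY4741, a haploid MATa laboratory strain with deletions in HIS3, LEU2, MET15 and URA3. Both keep a loxP site where the deleted BMH gene was, as the KanMX cassette had been taken out with Cre. BMH1 and BMH2 encode the yeast 14-3-3 proteins, which bind phosphorylated proteins. An overnight culture in YNB medium with 50 mM KCl at 30 °C was divided over 2 flasks of the same medium, and after further growth the cells of one flask were washed and resuspended without KCl and those of the other with 50 mM KCl. The libraries carry the names C0, D0 and E0 (bmh2∆, 0 mM), C50, D50 and E50 (bmh2∆, 50 mM), GTCACG, B0 and TGCACT (bmh1∆, 0 mM) and GGATAT, B50 and CTATAG (bmh1∆, 50 mM), and values of single libraries are given in this order. No label says whether the 3 libraries of a group came from separate cultures, so the p-values measure the spread between these libraries, which may be in part technical. Libraries of BY4741 were not used here.

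Small reading frames were left out of the first annotations of the yeast genome because a short stretch without a stop codon arises easily by chance, and many were added later from conservation, expression or mass spectrometry. Some encode subunits of membrane complexes, small regulators or assembly factors of mitochondria, and for others no product is known. Suffixed names were also given to the reading frames of Ty elements, the LTR retrotransposons of yeast. Ty elements encode a capsid protein, Gag, and by ribosomal frameshifting a longer Gag-Pol protein with protease, integrase and reverse transcriptase, and their full-length RNA is both messenger and genome.

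The name of the group was checked against the R64 annotation of the S288C reference genome (RefSeq), which is not known to be the annotation of the authors. It holds 152 of the 312 names, on 16 chromosomes, and not the other 160. Of the 152, 114 have coding sequences of at most 300 bp, but 21 are over 800 bp, and 20 of these 21 are Ty reading frames, 14 gag-pol frames of 4497 to 5409 bp and 6 gag frames of 873 to 1323 bp. The group is thus not made up of small ORFs alone. It is also not wholly unnamed, since 34 members now carry a gene symbol in R64.

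In SAGE-tag sequencing the cDNA is captured by its poly(A) end and cut at CATG, and a tag of 21 bases that starts at the most 3′ CATG is read. A transcript gives 1 tag whatever its length, so RPM, in which the tag reads of a library are scaled to a total of 1000000, can be compared between genes, but a transcript without a CATG gives none. For short coding sequences this matters, and 46 of the 152 annotated members hold no CATG, so that a tag can only come from sequence outside the coding part. Of these 46, 22 (47.8%) were expressed, meaning at least 3 RPM in at least 3 libraries, against 69 (65.1%) of the 106 with a CATG.

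The coding sequences of 3 members that changed with potassium are printed to show where their CATG sites lie. They were read from the R64 genome, 5′ to 3′ on the coding strand, with each CATG in capitals. YER053C-A is 114 bp long (chrV:260933-261046, minus strand) and lies between GIP2 and PIC2, and its product is uncharacterized. YBR085C-A is 258 bp (chrII:418907-419164, minus strand), also uncharacterized. YMR230W-A is 189 bp (chrXIII:733268-733456, plus strand), starts 126 bp after RPS10B, a gene of the small ribosomal subunit, and holds 2 CATG sites. After the stop codon the next CATG starts 88 bp on in YMR230W-A, 37 bp in YBR085C-A and 386 bp in YER053C-A. A transcript that reaches this site would give its tag from there and not from the coding sequence.
YER053C-A: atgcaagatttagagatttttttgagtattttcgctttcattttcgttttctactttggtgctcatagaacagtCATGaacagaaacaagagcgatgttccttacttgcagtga
YBR085C-A: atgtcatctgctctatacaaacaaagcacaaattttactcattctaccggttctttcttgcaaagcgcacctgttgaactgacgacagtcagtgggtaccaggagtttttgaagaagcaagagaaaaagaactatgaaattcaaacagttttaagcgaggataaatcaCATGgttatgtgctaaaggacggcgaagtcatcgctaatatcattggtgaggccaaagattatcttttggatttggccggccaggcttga
YMR230W-A: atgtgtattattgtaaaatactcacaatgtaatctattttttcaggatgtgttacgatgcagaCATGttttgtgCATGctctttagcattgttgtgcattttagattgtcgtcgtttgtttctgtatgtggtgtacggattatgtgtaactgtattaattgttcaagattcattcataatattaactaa

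Each of these 3 last coding tags is found in 1 place in the genome. Members without a CATG can only be counted from a tag after the stop codon, and the first such tag is shown for 4 of them that are described further on. The tag starts 38 bp after the stop codon of YCR024C-B (chrIII:162541-162561), 74 bp after that of YIR018C-A (chrIX:385470-385490), 164 bp after that of YER138W-A (chrV:449742-449762) and 59 bp after that of YLR154C-H (chrXII:468748-468768).
YCR024C-B: CATGataactcatgtgtgtgt
YIR018C-A: CATGaactaattctttacaca
YER138W-A: CATGaattgactagtatatac
YLR154C-H: CATGttcagtaggtgggagtg
The first 3 of these tags are found in 1 place in the genome and that of YLR154C-H, which lies in the ribosomal DNA, in 2. Which tags the authors counted for a row is not given in the sources used here.

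Ty tags are shared between elements, which limits what a Ty row measures. The last CATG tags within the coding sequences of the 5 Ty frames that the results turn on are shown, each from R64.
YBL005W-B: CATGtacttcaaccacggaag
YBR012W-B: CATGtacttcaactacggaag
YBL100W-B: CATGcacttcaactacagaag
YGR109W-B: CATGcaagatgtagacccaac
YGR109W-A: CATGgaagaggcttaccagac
The tag of YBL005W-B, a Ty1 frame at chrII:221330-226598, is found in 1 place and differs from that of the Ty1 frame YBR012W-B by C14T, counted from 1 at the C of CATG with the base of YBL005W-B first. From that of YBL100W-B, a Ty2 frame at chrII:29935-35248, it differs by T5C, C14T and G17A. The tag of YBR012W-B has 22 copies in the genome and that of YBL100W-B 20, and this tag is the last one of 6 of the 20 Ty members. Among these 6 are the Ty1 frames YLR227W-B and YNL054W-B, so the tag does not separate Ty2 from Ty1. YGR109W-B, a Ty3 gag-pol frame at chrVII:707610-712254, has a last coding tag found in 1 place, while the tag in the gag frame YGR109W-A within it has 2 copies. A further CATG starts 47 bp after the stop codon of YGR109W-B, and its tag has 7 copies. That after YBL005W-B starts 403 bp on, and its tag is found in 1 place. A transcript that reaches such a site would give its tag from there. Only these 2 gag-pol frames, YBL005W-B and YGR109W-B, have a last coding tag found in 1 place, and the most copies of any last coding tag of a Ty frame were 32.

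Several libraries stood apart and touch the results. In each library all values are whole multiples, within 0.01, of a step that is the smallest value above 0 divided by 2. If a step were 1 read, the depth would be 107579363 in B0 and 73863623 in GTCACG, both bmh1∆ at 0 mM KCl, and 6237952 (B50) to 19334173 in the other 10 libraries. In steps, B0 was below the sum of the 7 other lettered libraries at 0 of 6053 genes, and GTCACG was below the sum of the 3 other lane 1 libraries at 1 gene. Whether the B0 and GTCACG columns hold reads of those other libraries, which for B0 include all bmh2∆ libraries and libraries at 50 mM KCl, was not tested, and it touches every bmh1∆ value at 0 mM KCl. Tests of bmh1∆ at 0 mM KCl are therefore also given without both, where TGCACT alone is left in the group and is assumed to vary like the libraries of the other groups. By the column names, 4 bmh1∆ libraries were read in lane 1, and B0, B50 and all bmh2∆ libraries in lanes 5 to 7. This split is called the run below, but no label says whether it was one of sequencing runs, preparations or cultures. BMH2 was at most 0.291 RPM in bmh2∆ libraries and 197 to 505 RPM in bmh1∆ libraries. BMH1 was 4048 to 5391 RPM in bmh2∆ and 536 to 4170 RPM in bmh1∆, but a CATG lies 123 bp after its stop codon, so that its tag can lie outside the deleted part and does not check the label. Of the marker genes with deletions in BY4741, URA3 was at most 0.328 RPM. HIS3, however, was 2.21 to 25.2 RPM, so its row does not check the genotype. Of the markers of MATa cells, MFA1 was 1779 to 13718 RPM and STE2 486 to 1772 RPM. BAR1 was 19.7 to 361 RPM, STE6 42.2 to 248 RPM, MFA2 7.21 to 122 RPM and AGA2 16.2 to 96.7 RPM. Of those of MATα cells MF(ALPHA)1 was at most 3.50 RPM, MF(ALPHA)2 at most 1.50 RPM and STE3 at most 6.09 RPM. The MATα marker SAG1, however, was 8.21 to 63.7 RPM, a range near that of AGA2.

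Of the 312 suffixed ORFs, 146 (46.8%) were expressed, against 5132 of the 5741 other genes (89.4%). The median of the mean over 12 libraries was 1.61 RPM for the suffixed ORFs and 39.7 RPM for the others. A mean of 1 RPM was reached by 176, of 10 RPM by 80, of 100 RPM by 30 and of 1000 RPM by 5. In every library 172 had a value above 0, and 140 were at 0 in at least 1. All members together took 1.24% (B50) to 3.44% (E0) of the RPM of a library, and the 5 most abundant held 62.2% of the members' RPM and the 10 most abundant 72.7%.

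Expressed members were found in nearly all annotation classes. Ty frames and the frames in the ribosomal DNA were set aside first. Of the 117 other annotated members that overlap no other gene, 72 (61.5%) were expressed, and of the 8 that overlap a gene on the opposite strand 4 were. None of the 5 that overlap a gene on the same strand passed, and the highest of them, YNL042W-B, reached 1.27 RPM in a single library. Of the 160 names that are not in R64, 55 (34.4%) were expressed. Outside Ty elements, the median coding length was 213 bp for the 78 annotated members that were expressed and 180 bp for the 54 that were not. Members lay on both sides close to the threshold, which looks at the third highest library. This was at 3.03 RPM in YFL013W-A and 3.13 RPM in YAL056C-A, just inside, and at 2.84 RPM in YHR175W-A and 2.74 RPM in YPL135C-A, just outside.

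**Figure D1:**
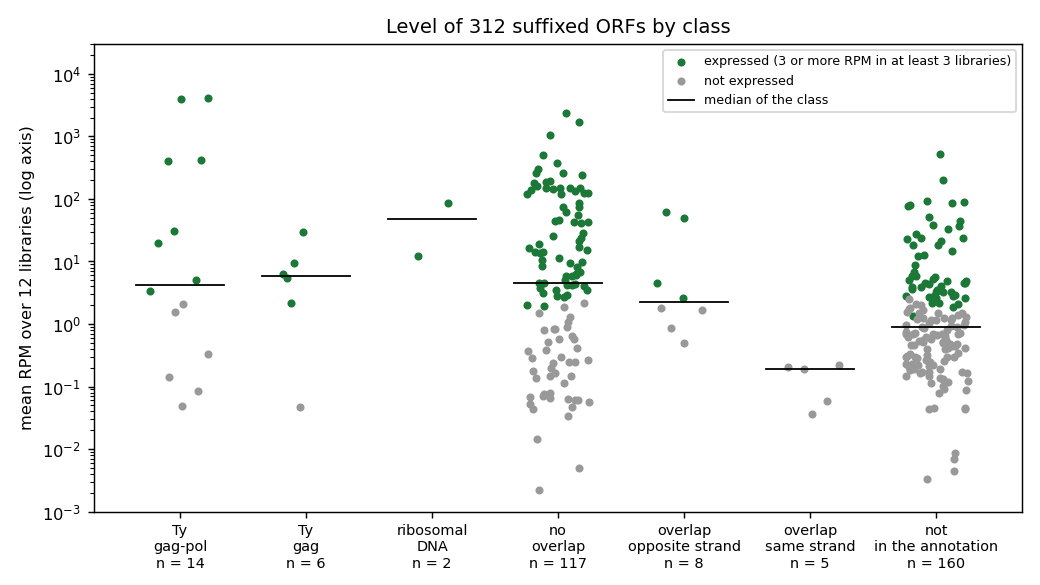
Mean RPM over 12 libraries (log axis) of each of the 312 suffixed ORFs, by annotation class, with expressed members in green, the others in grey and the class median as a line. The Ty gag-pol class reaches 4086 RPM and the class without overlap 2401 RPM, while the 160 names absent from R64 have a median of 0.894 RPM.

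The most abundant rows were 2 Ty gag-pol frames, YBL100W-B with a mean of 4086 RPM and YBL005W-B with 3941 RPM. They were followed by YBR126W-A (MEO1, a small protein of the endoplasmic reticulum) with 2401 RPM, YCR024C-B (uncharacterized) with 1678 RPM and YJL133C-A (DPI8, a mitochondrial protein) with 1064 RPM. Among the next 5 were YCL057C-A (MIC10, a core subunit of the MICOS complex that bends the mitochondrial inner membrane) with 495 RPM, the Ty3 frame YGR109W-B with 417 RPM, the Ty1 frame YDR261C-D with 408 RPM and YAL037C-A with 372 RPM. YPR170W-A, with 517 RPM, was the highest of the names that R64 does not hold. YAL037C-A, a frame of 93 bp without a CATG, ends 137 bp from the end of CDC19, the abundant gene of pyruvate kinase on the opposite strand, and whether reads of the one were given to the other was not tested.

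Among expressed members the median ratio of the highest to the lowest library was 7.15, over those above 0 in every library. Only 16 members had a ratio under 3. The steadiest were YHR032W-A, with 64.6 to 90.6 RPM over the 12 libraries, and YCR087C-A, with 35.6 to 57.9 RPM. In contrast 7 expressed members were at 0 in at least 1 library. On the log2(RPM + 1) scale the median SD within a group was 0.34 in bmh2∆ at 0 mM KCl, 0.26 in bmh2∆ at 50 mM KCl, 0.59 in bmh1∆ at 0 mM KCl and 0.74 in bmh1∆ at 50 mM KCl. The bmh1∆ libraries thus spread more, which was also so over all 5278 genes tested (0.51 and 0.74, against 0.32 and 0.24 in bmh2∆).

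The first comparison asked which suffixed ORFs respond to 60 min without potassium. In bmh2∆, 12 of the 146 tested members (8.22%) passed limma on log2(RPM + 1) at an adjusted p under 0.05, 10 higher and 2 lower at 0 mM KCl. Over all 5278 genes tested 5.53% passed, 2.9% higher and 2.63% lower. In bmh1∆, 7 members (4.79%) passed, all of them higher, against 0.966% of all genes, none of which was lower. After quantile scaling 6 passed in bmh1∆, 4 higher and 2 lower, for which the share of all genes was not computed. All 7 were among the 12 of bmh2∆. The median difference over the tested members was −0.02 in bmh2∆ and 0.23 in bmh1∆, beside 0.05 and 0.14 for all genes, and the median of all genes in bmh1∆ was −0.04 after median-of-ratios scaling. The 12 were 6 ORFs outside Ty elements and 4 Ty frames that were higher, and 2 ORFs outside Ty elements that were lower.

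**Figure D2:**
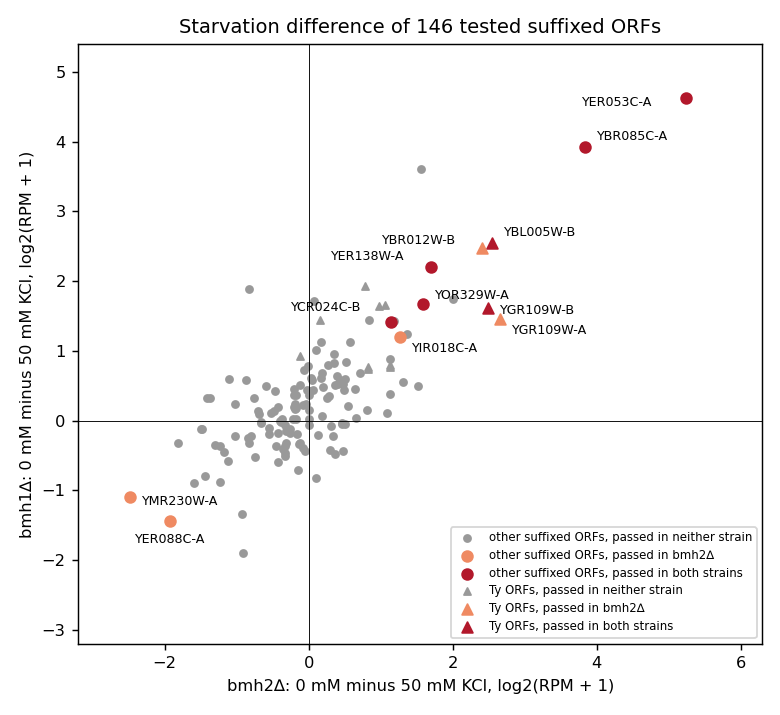
Difference between 0 and 50 mM KCl on the log2(RPM + 1) scale of the 146 tested suffixed ORFs, with bmh2∆ on the horizontal and bmh1∆ on the vertical axis, Ty frames as triangles and members that passed in colour with their names. YER053C-A (5.24 and 4.62) and YBR085C-A (3.84 and 3.92) lie apart at the upper right, and YMR230W-A (−2.48 and −1.10) at the lower left.

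YER053C-A, whose GFP fusion has been placed in the endoplasmic reticulum, had the largest change of any suffixed ORF in both strains. In bmh2∆ it had 277, 179 and 306 RPM at 0 mM KCl, against 5.44, 6.15 and 5.22 RPM at 50 mM KCl. The bmh1∆ libraries had 149, 112 and 393 RPM at 0 mM KCl, against 5.90, 8.66 and 5.74 RPM at 50 mM KCl. Every library without potassium was thus above 100 RPM and every library with it under 10 RPM. The means were 254 ± 66.7 and 5.60 ± 0.488 RPM in bmh2∆ (SD, n = 3 each), a 45.3-fold difference with a log2 value of 5.24 ± 0.43 (SE, adjusted p = 0.000110 with limma). In bmh1∆ the means were 218 ± 153 and 6.76 ± 1.64 RPM, 32.2-fold with a log2 value of 4.62 (adjusted p = 0.000576), and 5.69 without B0 and GTCACG (adjusted p = 0.000342). The change passed in both strains without any 1 of the 12 libraries.

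PHO84, the phosphate transporter gene that the study was about, had 225 to 253 RPM in bmh2∆ at 0 mM KCl, against 5.17 to 6.07 RPM at 50 mM KCl, levels close to those of YER053C-A. The neighbours of YER053C-A on the chromosome did not pass in either strain. GIP2, which lies 1005 bp upstream and encodes a regulatory subunit of protein phosphatase 1, had 19.8 ± 2.44 RPM at 0 mM KCl and 23.0 ± 9.72 RPM at 50 mM KCl in bmh2∆. PIC2, a gene of a mitochondrial carrier 1293 bp downstream, had 162 ± 13.2 and 101 ± 50.6 RPM.

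YBR085C-A, an uncharacterized frame whose product has been seen in cytoplasm and nucleus, changed next most. It had 365, 294 and 278 RPM in bmh2∆ at 0 mM KCl, against 29.9, 12.3 and 24.0 RPM at 50 mM KCl. The bmh1∆ values were 225, 161 and 717 RPM at 0 mM KCl, against 13.3, 19.7 and 24.6 RPM at 50 mM KCl. The log2 difference was 3.84 ± 0.52 in bmh2∆ (14.2-fold, adjusted p = 0.00345) and 3.92 in bmh1∆ (19.1-fold, adjusted p = 0.00503), and 5.19 in bmh1∆ without B0 and GTCACG (adjusted p = 0.00207). TGCACT was the highest of the bmh1∆ libraries at 0 mM KCl for both ORFs. Like YER053C-A it passed in both strains without any 1 library.

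Because these 2 ORFs moved together, their promoters are shown, from 250 bases before to 50 bases after the start codon in R64. The windows are chrV:260997-261296 for YER053C-A and chrII:419115-419414 for YBR085C-A, both on the minus strand. Capitals mark AGGGG, the core of the element bound by the stress factors Msn2 and Msn4, or its complement CCCCT.
YER053C-A: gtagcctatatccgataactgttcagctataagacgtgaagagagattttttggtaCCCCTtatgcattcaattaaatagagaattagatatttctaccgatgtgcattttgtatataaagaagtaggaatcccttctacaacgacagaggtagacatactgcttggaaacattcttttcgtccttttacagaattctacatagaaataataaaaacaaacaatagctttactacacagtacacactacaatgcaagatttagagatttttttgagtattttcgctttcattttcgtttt
YBR085C-A: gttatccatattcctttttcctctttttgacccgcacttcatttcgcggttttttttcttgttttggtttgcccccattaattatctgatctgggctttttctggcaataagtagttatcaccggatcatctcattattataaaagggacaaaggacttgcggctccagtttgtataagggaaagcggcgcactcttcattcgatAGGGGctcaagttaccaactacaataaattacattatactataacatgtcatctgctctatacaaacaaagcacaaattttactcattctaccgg
The match starts 194 bases before the start codon of YER053C-A and 45 before that of YBR085C-A. AGGGG on either strand was in 21.6% of the 6026 windows of this length in R64 and in 34 of the 152 windows of annotated suffixed ORFs (22.4%), so such a match is common. CACGTG, which reads the same on both strands and is the core bound by Pho4, was in neither window, in 2.90% of all windows and in 3 of the 152. The window of PHO84 does not hold it either, and that of SPL2, another gene under Pho4, holds it 3 times. A match of CACGTG cannot overlap one of AGGGG or CCCCT, and a match is no evidence of binding.

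YCR024C-B, an uncharacterized frame of 267 bp (chrIII:162599-162865, minus strand), was the most abundant of the ORFs outside Ty elements that passed. It had 2458, 2634 and 2677 RPM in bmh2∆ at 0 mM KCl, against 1123, 1154 and 1253 RPM at 50 mM KCl. The means were 2589 ± 116 and 1177 ± 67.8 RPM, a 2.20-fold difference (log2 1.14 ± 0.27, adjusted p = 0.0321). Its levels in bmh1∆ were 1873, 1885 and 2665 RPM, against 716, 1029 and 673 RPM (2.66-fold, log2 1.41, adjusted p = 0.0347), and without B0 and GTCACG the log2 value was 1.75 (adjusted p = 0.0510). The groups did not overlap in either strain, but the call rests on few libraries and held without 5 of the 12 single libraries in bmh2∆ and without 1 in bmh1∆. The frame starts 79 bp after the stop codon of PMP1, which encodes a small proteolipid bound to the plasma membrane H+-ATPase and whose coding sequence of 123 bp holds no CATG. The first CATG after the PMP1 stop codon starts 64 bp on, before the start of YCR024C-B. The row PMP1 had 88.5 ± 21.9 RPM at 0 mM KCl and 17.4 ± 6.96 RPM at 50 mM KCl in bmh2∆ (log2 2.32, adjusted p = 0.0948). Whether tags of PMP1 messengers were counted in the row of YCR024C-B was not tested.

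Low ORFs outside Ty elements were higher at 0 mM KCl too. YER138W-A (uncharacterized, chrV:449474-449578, plus strand) had 7.55, 12.3 and 6.20 RPM in bmh2∆ at 0 mM KCl, against 1.38, 1.48 and 3.09 RPM at 50 mM KCl (log2 1.69 ± 0.33, adjusted p = 0.0175, held without 8 of the 12 single libraries). Values in bmh1∆ were 5.93, 4.77 and 7.14 RPM, against 0.621, 0.321 and 0.574 RPM (log2 2.20, adjusted p = 0.0105, and 2.44 with adjusted p = 0.0384 without B0 and GTCACG). The call in bmh1∆ held without any 1 library. YOR329W-A, a name that shares its number with SCD5 and is not in R64, had 6.39, 6.84 and 5.81 RPM in bmh2∆ at 0 mM KCl, against 1.01, 1.09 and 2.41 RPM at 50 mM KCl (log2 1.59 ± 0.31, adjusted p = 0.0175, held without 7 of the 12). Of the bmh1∆ libraries, those at 0 mM KCl had 2.23, 3.56 and 1.86 RPM, against 0.310 RPM in GGATAT and 0 in B50 and CTATAG at 50 mM KCl (log2 1.67, adjusted p = 0.0304, and 1.39 with adjusted p = 0.163 without B0 and GTCACG), and this call held without 3 of the 12. YIR018C-A (uncharacterized, chrIX:385564-385701, minus strand) had 7.12, 7.06 and 7.36 RPM in bmh2∆ at 0 mM KCl, against 2.03, 2.49 and 2.70 RPM at 50 mM KCl, the smallest SE among the 12 (log2 1.27 ± 0.26, adjusted p = 0.0202, held without 6 of the 12). It did not pass in bmh1∆, with 2.92, 4.74 and 4.61 RPM, against 1.50, 1.12 and 0.984 RPM (log2 1.20, adjusted p = 0.0651, and 1.36 with adjusted p = 0.108 without B0 and GTCACG), although the groups did not overlap. Its neighbour MUC1 (FLO11, a flocculin of the cell surface) was lower in bmh2∆ at 0 mM KCl (log2 −0.96, adjusted p = 0.0492).

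The 2 ORFs that fell passed in bmh2∆ alone. YMR230W-A had 3.78, 4.26 and 2.56 RPM in bmh2∆ at 0 mM KCl, against 21.4, 26.2 and 24.6 RPM at 50 mM KCl, so that its mean was 0.147 of that with potassium (log2 −2.48 ± 0.40, adjusted p = 0.00982, held without 11 of the 12 single libraries). In bmh1∆ it had 11.3, 14.8 and 3.80 RPM, against 19.6, 19.4 and 20.9 RPM. The log2 difference there was −1.10 (adjusted p = 0.276), and −2.13 without B0 and GTCACG (adjusted p = 0.0329). RPS10B, just upstream on the same strand, had 833 ± 260 and 1260 ± 238 RPM in bmh2∆ (log2 −0.63, adjusted p = 0.303). YER088C-A, a name not in R64 that shares its number with DOT6, had 3.63, 3.01 and 3.25 RPM in bmh2∆ at 0 mM KCl, against 18.2, 15.7 and 12.5 RPM at 50 mM KCl (log2 −1.92 ± 0.39, adjusted p = 0.0195, held without 6 of the 12). In bmh1∆ it had 25.9, 10.6 and 8.86 RPM, against 50.2, 28.7 and 39.6 RPM (log2 −1.44, adjusted p = 0.124, and −2.00 with adjusted p = 0.0510 without B0 and GTCACG). For both ORFs the groups did not overlap in either strain.

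**Figure D3:**
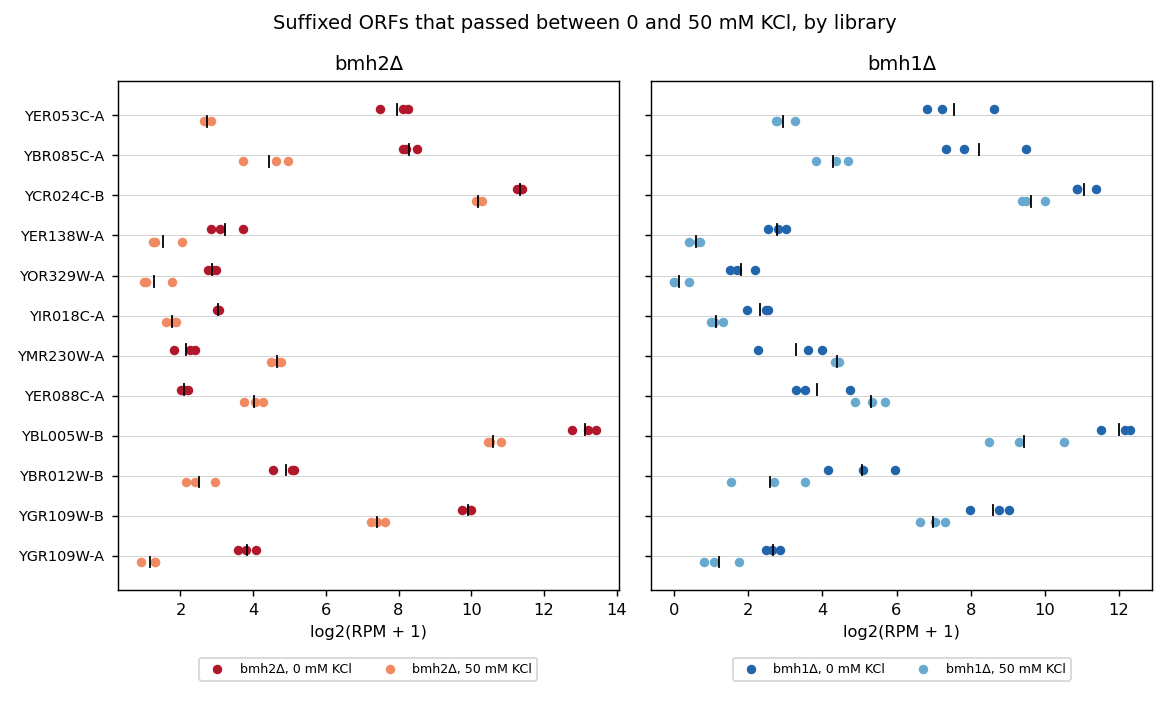
Level on the log2(RPM + 1) scale, by library, of the 12 suffixed ORFs that passed between 0 and 50 mM KCl, with bmh2∆ on the left and bmh1∆ on the right, each point a library and each short line the mean of 3. In both strains the points at 0 mM KCl lie apart from those at 50 mM KCl for all 12 ORFs.

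All 20 Ty frames are annotated, in 8 Ty1, 6 Ty2, 3 Ty3 and 3 Ty4 rows, and 13 of them were expressed (7, 2, 2 and 2). In bmh2∆ the difference between 0 and 50 mM KCl was above 0 for 12 of the 13 and in bmh1∆ for all 13, counts that quantile and median-of-ratios scaling left as they were. Their median was 1.05 in bmh2∆ and 1.45 in bmh1∆, beside −0.08 and 0.16 for the 133 tested members outside Ty elements. Without overlap between the groups, 10 of the 13 (76.9%) were higher in bmh2∆ and 8 (61.5%) in bmh1∆, beside 20.2% and 9.44% of all genes. In bmh2∆ 4 of the 13 passed, beside 5.53% of all genes, and in bmh1∆ 2, beside 0.966%. Neither of these 2 passed in bmh1∆ after median-of-ratios scaling. A Ty frame and the gag frame within it share their sequence, and many tags are shared between elements, so that these rows are not independent of each other.

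YBL005W-B had the highest mean of the Ty frames without potassium in both strains. It had 9507, 7021 and 11091 RPM in bmh2∆ at 0 mM KCl, against 1809, 1466 and 1407 RPM at 50 mM KCl (5.90-fold, log2 2.54 ± 0.46, adjusted p = 0.0139). The call of YBL005W-B held without 8 of the 12 single libraries in bmh2∆ and without 4 in bmh1∆. In bmh1∆ it had 2946, 5005 and 4576 RPM, against 636, 1469 and 359 RPM (5.08-fold, log2 2.55, adjusted p = 0.0263, and 2.72 with adjusted p = 0.0797 without B0 and GTCACG). The gag frame within the same element, YBL005W-A, has its last CATG at base 926, against base 4931 in YBL005W-B. A full-length RNA would give its tag from the most 3′ CATG, so these rows need not move together. In bmh2∆ YBL005W-A stayed near 10 RPM. It had 9.52, 11.0 and 8.29 RPM at 0 mM KCl, against 8.02, 11.4 and 6.57 RPM at 50 mM KCl. Its bmh1∆ groups did not overlap, with 13.6, 8.90 and 22.0 RPM at 0 mM KCl, against 3.57, 6.25 and 4.02 RPM at 50 mM KCl (log2 1.44, adjusted p = 0.108, and 2.06 with adjusted p = 0.0510 without B0 and GTCACG). YBR012W-B, the Ty1 frame whose last coding tag differs from that of YBL005W-B by a single base, had 34.1, 32.3 and 22.2 RPM in bmh2∆ at 0 mM KCl, against 4.24, 6.77 and 3.48 RPM at 50 mM KCl (log2 2.41 ± 0.55, adjusted p = 0.0298, held without 6 of the 12). In bmh1∆ it had 33.4, 16.9 and 61.2 RPM, against 10.7, 1.92 and 5.49 RPM (log2 2.48, adjusted p = 0.0718, and 3.36 with adjusted p = 0.0454 without B0 and GTCACG).

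Ty3 frames had the smallest SE of the Ty frames that passed. YGR109W-B had 1006, 861 and 1020.2 RPM in bmh2∆ at 0 mM KCl, against 196, 168 and 151 RPM at 50 mM KCl (5.62-fold, log2 2.49 ± 0.32, adjusted p = 0.00235). In bmh1∆ it had 254, 521 and 438 RPM, against 129, 157 and 98.5 RPM (3.15-fold, log2 1.61, adjusted p = 0.0436, and 1.79 with adjusted p = 0.0548 without B0 and GTCACG). Its gag frame YGR109W-A had 11.0, 16.0 and 13.1 RPM in bmh2∆ at 0 mM KCl, against 1.48, 1.48 and 0.869 RPM at 50 mM KCl (10.5-fold, log2 2.66 ± 0.31, adjusted p = 0.00170), and in bmh1∆ 5.25, 6.29 and 4.61 RPM, against 2.38, 1.12 and 0.738 RPM (adjusted p = 0.0611, and 0.240 without B0 and GTCACG). Both passed in bmh2∆ without any 1 library, but YGR109W-B in bmh1∆ held without only 2 of the 12.

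The Ty2 frame YBL100W-B, whose last coding tag is also that of the Ty1 frames YLR227W-B and YNL054W-B, did not pass. It had 6701, 4272 and 9701 RPM in bmh2∆ at 0 mM KCl, against 3197, 2788 and 2955 RPM at 50 mM KCl (log2 1.13, adjusted p = 0.103), and in bmh1∆ 3416, 4741 and 3885 RPM, against 2372, 3442 and 1564 RPM (log2 0.77, adjusted p = 0.456, and 0.73 with adjusted p = 0.559 without B0 and GTCACG). The Ty4 frame YHL009W-B had log2 differences of 0.98 in bmh2∆ and 1.64 in bmh1∆ (adjusted p = 0.559 and 0.423), and of 0.87 in bmh1∆ without B0 and GTCACG (adjusted p = 0.714). Summed over all 20 frames, Ty rows had 17967, 12813 and 22760 RPM in bmh2∆ at 0 mM KCl, against 5627, 4899.5 and 4861 RPM at 50 mM KCl, a 3.48-fold difference of the means. In bmh1∆ they had 7147, 10867 and 9395 RPM, against 3359, 5750 and 2169 RPM, 2.43-fold, and TGCACT alone was 2.50-fold above the mean at 50 mM KCl. Each library at 0 mM KCl was above every library at 50 mM KCl of its strain, and YBL100W-B and YBL005W-B together held 85.4% to 91.4% of the sum.

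**Figure D4:**
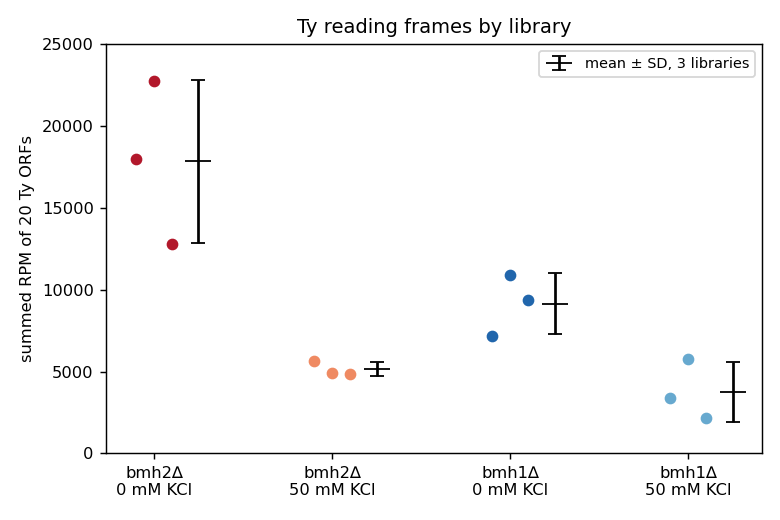
Summed RPM of the 20 Ty frames in each library, by group, with the mean ± SD of 3 libraries beside the points. The libraries at 0 mM KCl reach 22760 RPM in bmh2∆ and 10867 RPM in bmh1∆, against at most 5627 and 5750 RPM at 50 mM KCl.

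Of the 34 members with a gene symbol 30 were expressed. None of them passed in any comparison. Of all genes, 5.53% passed between 0 and 50 mM KCl in bmh2∆, 0.966% in bmh1∆ and at most 0.0568% between the strains. With shares this low, 0 of 30 says little about these genes. In bmh2∆ 8 (26.7%) were higher and 3 (10.0%) lower at 0 mM KCl without overlap, beside 20.2% and 20.5% of all genes. In bmh1∆ 4 (13.3%) were higher and none lower, beside 9.44% and 3.16%. The smallest adjusted p among them in bmh1∆ was that of YNR034W-A (EGO4), annotated as a gene under Msn2 and Msn4, with 125, 148 and 475 RPM at 0 mM KCl, against 21.7, 10.9 and 17.1 RPM at 50 mM KCl (log2 3.61, adjusted p = 0.0618, and 4.81 with adjusted p = 0.0549 without B0 and GTCACG). In bmh2∆ its groups overlapped, with 247, 244 and 141 RPM, against 104, 16.4 and 185 RPM (log2 1.55, adjusted p = 0.321). MEO1 had 1942, 3612 and 2164 RPM in bmh2∆ at 0 mM KCl, against 2314, 2315 and 2934 RPM at 50 mM KCl (adjusted p = 0.994), although TPS1, the gene of trehalose-phosphate synthase next to it, had 259 ± 43.5 and 91.7 ± 13.9 RPM (adjusted p = 0.0745). DPI8 had 998, 1091 and 927 RPM, against 771, 965 and 908 RPM (adjusted p = 0.876). YIL002W-A (CMI7) had the largest difference downwards of these genes in bmh2∆, with 5.38, 9.63 and 2.63 RPM at 0 mM KCl, against 16.8, 26.7 and 21.0 RPM at 50 mM KCl (log2 −1.82, adjusted p = 0.256).

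Over all tested members, 34 (23.3%) were higher and 25 (17.1%) lower at 0 mM KCl without overlap between the bmh2∆ groups, beside 20.2% and 20.5% of all genes. In bmh1∆ 23 (15.8%) were higher and 4 (2.74%) lower, beside 9.44% and 3.16%. In both strains 15 were higher and 3 lower without overlap, beside 5.65% and 1.95% of all genes, and none went apart in opposite directions, beside 0.189%. Among members that did not pass, YPR170W-A had 222, 254 and 203 RPM in bmh2∆ at 0 mM KCl, against 518, 525 and 626 RPM at 50 mM KCl (log2 −1.30, adjusted p = 0.0578). YPR108W-A had 12.7, 19.0 and 16.6 RPM, against 35.3, 36.1 and 45.8 RPM (log2 −1.24, adjusted p = 0.158).

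The 12 and 7 calls were not equally firm. When bmh1∆ was fitted with the libraries of its own groups alone, 0 members passed (0.0379% of all genes) and YER053C-A had an adjusted p of 0.134 with limma. The same fit of bmh2∆ alone gave 39 (23.9%). With the run (lane 1 or not) as a term 23 passed in bmh1∆ (8.72% of all genes) and 31 in bmh2∆ (20.1%). Without B0 and GTCACG 13 members passed in bmh2∆ (6.44% of all genes) and 7 in bmh1∆ (2.2%), of which 3, YER053C-A, YBR085C-A and YER138W-A, were among the 7 above, and 2 of the 4 further ones, YMR230W-A and YLR154C-H, were lower. After the steps of the other lettered or lane 1 libraries had been subtracted from B0 and GTCACG, 10 passed in bmh1∆ (1.31% of all genes), all 7 among them, and 13 in bmh2∆ (4.73%). Within lane 1 (2 libraries against 2) all 7 were higher at 0 mM KCl, by 5.16 on the log2 scale for YER053C-A and 4.40 for YBR085C-A, and so they were between B0 and B50, by 3.54 and 2.96. Of the bmh2∆ libraries C0 shared lane 5 with those at 50 mM KCl, and its difference from them had the same sign as the whole for all 12. As the groups of all 7 and all 12 did not overlap, these signs were fixed in advance and are no check of the calls. In bmh2∆ 4 members passed without C0 (0.531% of all genes), 5 without D50 (1.00%), 6 without C50 (1.46%), E0 (1.35%) or D0 (2.29%), 7 without E50 (0.909%) and 25 without B50 (12.4%). In bmh1∆ 3 passed without GGATAT, C50, CTATAG, C0, TGCACT or E0 (0.360% to 0.587% of all genes), and 4 without B0 (0.909%), D0 (0.625%) or E50 (0.568%).

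The difference between the responses of the strains was tested as an interaction. None of the 146 members passed (0.0% of all genes), and 5 (3.42%) were at an unadjusted p under 0.05, beside 3.20% of all genes, with a smallest adjusted p of 0.993. The 5 members that passed in bmh2∆ and not in bmh1∆ had the same sign in both strains without overlap between the groups, so these calls do not show a difference between the strains.

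Between the strains at 50 mM KCl 1 member passed, which was lower in bmh2∆, beside 0.0568% of all genes in either direction and 0.0379% lower, and 26 (17.8%) were at an unadjusted p under 0.05, beside 16.6% of all genes. It was YLR154C-H, a frame of 132 bp in the ribosomal DNA (chrXII:468827-468958, minus strand) that overlaps a 5S rRNA gene on the opposite strand. It had 2.31, 2.18 and 2.03 RPM in bmh2∆, against 34.0, 30.9 and 40.6 RPM in bmh1∆ (log2 −3.50 ± 0.44, adjusted p = 0.0151). Against B50 alone, which like bmh2∆ was not read in lane 1, the difference was −3.33. At 0 mM KCl it had 0.799, 0.809 and 0.465 RPM in bmh2∆, against 19.8, 3.93 and 7.81 RPM in bmh1∆ (log2 −2.52, adjusted p = 0.201, and −2.39 with adjusted p = 0.245 without B0 and GTCACG). Every bmh2∆ library was thus below every bmh1∆ library at the same KCl. The call was lost without GGATAT, C50, CTATAG or E50, when no member passed (0.0189% of all genes each), and without B50 37 members passed (25.4% of all genes). With the run (lane 1 or not) as a term the difference was −2.93 (adjusted p = 0.0197 with limma). YLR154C-G, the other frame in the ribosomal DNA, had 86.7 ± 14.3 RPM in bmh2∆ and 85.5 ± 43.6 RPM in bmh1∆ at 50 mM KCl.

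At 0 mM KCl no member passed between the strains, beside 0.0189% of all genes, and 24 (16.4%) were at an unadjusted p under 0.05 with limma, beside 11.5% of all genes. Without B0 1 member, YLR154C-H, passed (0.0758% of all genes). Without overlap 18 members (12.3%) were higher and 8 (5.48%) lower in bmh2∆ than in bmh1∆ at 50 mM KCl, beside 10.7% and 9.28% of all genes, and 13 (8.90%) were higher and 20 (13.7%) lower at 0 mM KCl, beside 6.57% and 11.8%. The median difference over all genes at 0 mM KCl was −0.15 on the RPM scale and 0.02 after median-of-ratios scaling, and that of the members was −0.27. Ty3 levels were among the values apart at 0 mM KCl, where YGR109W-B averaged 962 ± 88.2 RPM in bmh2∆ and 404 ± 137 RPM in bmh1∆ (log2 1.31, adjusted p = 0.395, and 1.13 with adjusted p = 0.245 without B0 and GTCACG). MIC10 averaged 537 ± 65.2 RPM in bmh2∆ and 264 ± 87.9 RPM in bmh1∆ at 50 mM KCl (log2 1.07, adjusted p = 0.216, and 0.73 with the run as a term). YDR119W-A (COX26, a subunit of cytochrome c oxidase) had 17.2, 3.27 and 17.7 RPM in bmh2∆, against 1.24, 0.962 and 0.656 RPM in bmh1∆ at 50 mM KCl (log2 2.55, adjusted p = 0.139, and 2.45 with the run as a term).

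Other members lay apart between the strains without passing. At 50 mM KCl YLL066W-B had 42.7, 52.4 and 50.5 RPM in bmh2∆, against 3.41, 15.1 and 1.64 RPM in bmh1∆ (log2 3.11, adjusted p = 0.210). YEL034C-A had 26.1, 56.8 and 24.9 RPM, against 9.72, 18.3 and 12.1 RPM (log2 1.30, adjusted p = 0.260), and YML009W-B had 99.0, 114 and 108 RPM, against 72.7, 61.4 and 40.9 RPM (log2 0.90, adjusted p = 0.242). YLR146W-A was on the other side, with 25.4, 26.8 and 27.2 RPM in bmh2∆, against 86.5, 36.7 and 78.4 RPM in bmh1∆ (log2 −1.22, adjusted p = 0.223). In this ORF and in YLL066W-B, B50 was the bmh1∆ library nearest to bmh2∆. With the run as a term the log2 differences were 1.17 in YLL066W-B (adjusted p = 0.277), 0.78 in YEL034C-A (0.366), 0.55 in YML009W-B (0.331) and −0.36 in YLR146W-A (0.397). YER088C-A, which fell without potassium in bmh2∆, had lower values in bmh2∆ than in bmh1∆ at both KCl levels, with log2 differences of −1.28 at 50 mM KCl (adjusted p = 0.203, and −0.91 with the run as a term) and −1.76 at 0 mM KCl (adjusted p = 0.395, and −1.20 without B0 and GTCACG). At 0 mM KCl YBL006W-A had 10.5, 7.28 and 12.3 RPM in bmh2∆, against 4.14, 6.15 and 1.79 RPM in bmh1∆ (log2 1.21, adjusted p = 0.395, and 1.96 without B0 and GTCACG). YCR018C-A had 5.23, 4.56 and 6.89 RPM, against 21.1, 9.06 and 16.6 RPM (log2 −1.28, adjusted p = 0.395, and −1.44 without B0 and GTCACG). None of these groups overlapped, and none of the differences passed. Without B0 and GTCACG the adjusted p at 0 mM KCl was 0.245 for YER088C-A, YBL006W-A and YCR018C-A.

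Levels in bmh1∆ differed between the lane 1 libraries and B0 and B50. In 45 of the 146 tested members the 4 lane 1 libraries of bmh1∆ were all above B0 and B50, and in 25 all below, beside 34.4% and 23.6% of all genes. The largest gap was in YOL038C-A, an uncharacterized frame of 96 bp, which had 585 to 936 RPM in lane 1 but 15.8 RPM in B0 and 3.85 RPM in B50, where bmh2∆ libraries had 9.14 to 35.9 RPM. YIR021W-A had 157 to 254 RPM in lane 1, against 8.63 and 11.2 RPM in B0 and B50 and 4.25 to 22.3 RPM in bmh2∆. Its stop codon lies 6 bp before SEC11, a gene of the signal peptidase. YOR304C-A (BIL1) had 93.5 to 312 RPM in lane 1, against 17.0 and 15.4 RPM in B0 and B50, and YKL033W-A, a frame of the haloacid dehalogenase family, 559 to 773 RPM, against 141 and 126 RPM. In the other direction YBR076C-A had 0.410 to 4.39 RPM in lane 1, against 17.2 and 28.7 RPM, and YMR013C-A 1.89 to 8.33 RPM, against 29.2 and 89.8 RPM. As no bmh2∆ library was read in lane 1, strain and run can be told apart through B0 and B50 alone, and through B50 alone if B0 holds reads of bmh2∆ libraries.

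**Figure D5:**
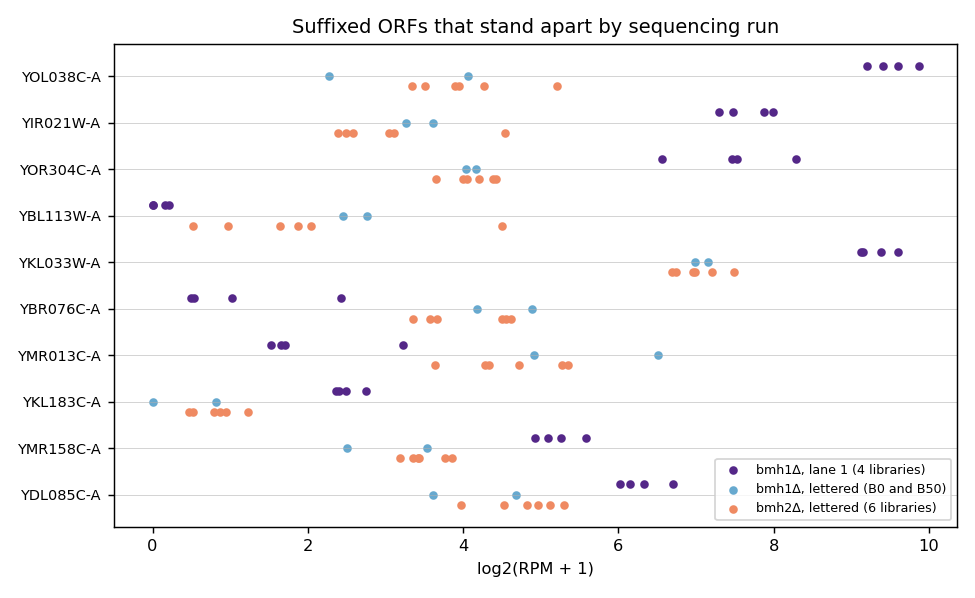
Level on the log2(RPM + 1) scale of the 10 tested suffixed ORFs with the widest gap between the 4 lane 1 libraries of bmh1∆ and B0 and B50, with the 6 bmh2∆ libraries below them. In YOL038C-A the lane 1 libraries lie at 585 to 936 RPM, and B0, B50 and the bmh2∆ libraries at 3.85 to 35.9 RPM.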

How the data were processed

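RNA levels were taken from the deposited table, in which the authors scaled SAGE tag reads per gene to RPM, so that each library sums to 1000000. Which aligner, genome build and annotation the authors used was not given in the sources used here. The values are not counts, and no count model was used. Members and lists were chosen with earlier results of these data known. A gene was tested if 3 or more libraries reached 3 RPM, which left 5278, and limma 3.58.1 in R 4.3.3 (trend and robust) fitted the 4 group means of log2(RPM + 1) to all of them. The 5 comparisons were two-sided, with Benjamini-Hochberg adjustment over all genes tested. A log2 difference understates the change of low genes on this scale. Exact permutation of 3 against 3 libraries cannot go below p = 0.1. Named were YER053C-A, the 10 most abundant members, up to 10 that passed per direction, up to 5 per direction without overlap and with a group mean of 10 RPM, the top 3 of each annotation class, neighbours of members that passed, and those nearest the threshold. YOL038C-A, YOR304C-A, YBR076C-A, YMR013C-A, YHR032W-A, YCR087C-A and YHL009W-B were chosen after their values were seen. Sequences and annotation came from RefSeq R64, read with Python 3.11.15, NumPy 2.4.6 and pandas 2.3.3, and figures were drawn with matplotlib 3.10.9. The alternatives were other pseudocounts, filters, scalings and fits, and leaving out libraries. The subtraction from B0 and GTCACG was chosen after seeing the data. No column of the table was left unused.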

Additional observations from a re-analysis of the deposited data

How the results depend on the processing

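Many calls depended on the settings, and the cause was not tested. Of 494 alternative values of the 20 differences that passed, 387 kept their call, 107 lost it and 0 reversed. In bmh1∆ the count of 7 was 3 with median-of-ratios scaling, 0 with the libraries of these groups alone and 23 with the run as a term. A replicate block by the letter in the library name also gave 23. The 4 lane 1 libraries have no letter and formed 1 block, so in bmh1∆ this block made the same split as the run. It is therefore not a further check there. Leaving out 1 library gave 3 to 8. In bmh2∆ the count of 12 was 39 with its groups alone, 31 with the run as a term, 30 with the replicate block (17.9% of all genes, and 5.89% in bmh1∆), 25 by the study's rule (unadjusted p under 0.01 and over 2-fold on RPM) and 4 to 25 without 1 library. Between the strains the study's rule gave 5 at 50 mM KCl and 3 at 0 mM KCl, subtraction gave 1 at 0 mM KCl, and leaving out 1 library gave 0 to 37 and 0 to 1. The interaction gave 0 throughout. For the study's rule, median-of-ratios scaling and the subtraction between the strains, the share of all genes was not computed. These counts are therefore not set against the genome. At 10 RPM, 87 members were expressed, at 1 RPM 199, and 138 to 146 without 1 library. Whether same-lettered libraries came from the same overnight culture is not given, and the replicate numbers in the labels are not in the column names. Deviations of same-lettered libraries from their group means correlated at 0.876 (B), 0.071 (C), 0.245 (D) and −0.291 (E). These values cannot decide it, as each group has 3 libraries and B0 and B50 were the only bmh1∆ libraries not read in lane 1. Whether B0 holds reads of B50, which could also raise the value of B, was not tested. At the lowest depth a step was 0.160 RPM, so members under about 1 RPM could not be compared.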
